A study of Mus musculus with 6 samples.

Results

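The genes described here encode the proteins of the cytosolic ribosome, and they were measured by RNA-Seq in bone marrow-derived macrophages (BMDM) with and without the catalytic subunit of protein phosphatase 2A (PP2Ac). They were selected from the table of gene counts by their symbols (*Rpl* or *Rps* and a number, with *Rplp0*, *Rplp1*, *Rplp2* and *Rpsa*) and by a minimum of 600 counts summed over the 6 libraries. Of 55453 rows in the table, 89 carried such a symbol and 79 reached the minimum, 47 of them for the large subunit and 32 for the small subunit. The summed counts chose the members, so their levels are given as a description. The rule does not use the difference between genotypes, but the family was chosen with earlier results on that difference known, so its calls are not independent evidence. All 79 passed the filter on low counts that left 13680 genes for testing. Of the 79, 75 are core components (45 large, 30 small) and 4 carry the name of a core gene with an added l or l1 (*Rpl22l1*, *Rpl7l1*, *Rps27l* and *Rps4l*).

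The 3 PP2Ac KO libraries came from BMDM of *LysMcre PP2Ac fl/fl* mice on C57BL/6, whose floxed *Ppp2ca* allele loses exon 1 in the cells where the promoter of *Lyz2*, a gene of myeloid cells, drives Cre. The 3 PP2Ac WT libraries came from BMDM of WT C57BL/6 mice. In the study's methods the mice were of both sexes and 6 to 10 weeks old, the WT mice were bought and the *LysMcre PP2Ac fl/fl* mice came from another laboratory, so that the colony and the genotype cannot be told apart. The cells of both genotypes are taken as treated with 10 μg/mL of the STING agonist cGAMP for 4 hours, since the study describes its RNA-Seq on such cells. The labels give the genotype and no treatment. The study describes its cell experiments as biological triplicates. Neither it nor the labels says whether the 3 libraries of a genotype came from separate mice, so p-values measure the spread between these libraries.

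A ribosome is built of a large and a small subunit, each a core of ribosomal RNA dressed with many proteins. The small subunit binds mRNA and decodes it, and the large subunit joins the amino acids and passes the chain out through its exit tunnel. In mammals almost every protein of the ribosome is made from a single active gene, and its mRNA begins with a run of pyrimidines, the 5′ terminal oligopyrimidine (TOP) motif, through which mTOR and the RNA-binding protein LARP1 control translation and mRNA stability. Many of these genes have silent processed pseudogenes elsewhere in the genome.

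The stretches that run from 40 bases before to 10 bases after the annotated start of 6 members are shown because the pyrimidine run known for this family lies at the start of the mRNA. Of the 6 stretches, 2 hold the letters CTTTCC searched for it. They are from the RefSeq promoter windows of GRCm38.p6, 5′ to 3′ on the strand of the gene. The first 4 belong to genes that rose in PP2Ac KO BMDM and the last pair to genes that did not pass the test, and all were chosen after their values were seen. Capitals mark the letters CTTTCC (a short pyrimidine run) and CCGGAAG (an ETS factor motif, printed as CTTCCGG where it lies on the other strand).
Rps27 (chr3:90213639-90213688, minus strand): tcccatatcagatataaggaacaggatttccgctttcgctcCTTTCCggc
Rps7 (chr12:28635944-28635993, minus strand): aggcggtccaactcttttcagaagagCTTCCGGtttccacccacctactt
Rpl37 (chr15:5116573-5116622, plus strand): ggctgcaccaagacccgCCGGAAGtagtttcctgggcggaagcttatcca
Rpl38 (chr11:114668540-114668589, plus strand): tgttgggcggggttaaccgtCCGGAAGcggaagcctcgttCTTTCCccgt
Rps2 (chr17:24720023-24720072, plus strand): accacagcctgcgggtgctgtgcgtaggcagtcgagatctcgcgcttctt
Rpl22l1 (chr3:28805468-28805517, plus strand): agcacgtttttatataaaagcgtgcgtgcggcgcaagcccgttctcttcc

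RefSeq windows were matched for 58 of the 79 members. In the stretch from 40 bases before to 10 after the start, CTTTCC stood on the sense strand in 9 of the 58 (15.5%), against 2.88% of 27025 genes. Over the whole window, from 250 bases before to 50 after the start and on either strand, CTTTCC was found for 50% of the 58 members and 29.3% of genes. CCGGAAG was found for 41.4% of members and 9.93% of genes in the same windows, and the E-box CACGTG, a MYC motif, for 10.3% and 8.09%. The letters searched do not overlap each other, and a match is a description of the window. Whether the letters go with the change between genotypes was not tested. *Rps24* and *Rps28*, which rose, had none of them in the whole window. *Rps2*, which did not pass the test, had both CTTTCC and CCGGAAG there.

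Library totals ran from 35257156 to 47390899 counts. *Ppp2ca*, the deleted gene, had 47, 33 and 38 counts in PP2Ac KO libraries 1 to 3, against 10654, 8913 and 8279 counts in the PP2Ac WT libraries. The 8 macrophage markers summed to 7441 to 7639 CPM (counts scaled to the size of the library) in PP2Ac KO against 6369 to 6978 CPM in PP2Ac WT libraries. *Lyz2* stood at 7.88 to 10.1 CPM in the former and 6.58 to 8.33 in the latter. Of the other cell types examined, the 4 fibroblast markers (*Col1a1*, *Col1a2*, *Col3a1*, *Dcn*) fell, with a summed level of 22.7 to 33.4 CPM in PP2Ac KO against 74.9 to 117.7 CPM in PP2Ac WT libraries. Of 4 dendritic cell markers, *Siglech*, a marker of plasmacytoid dendritic cells, rose at a low level of 12 to 29 counts per library. It had 0.495 to 0.695 CPM in PP2Ac KO against 0.276 to 0.342 CPM in PP2Ac WT libraries. *Flt3* did not pass the test (log2 fold change 0.19, edgeR adjusted p = 0.791), and *Zbtb46* and *Xcr1* had too few counts to be tested. The part of these cell types in the values of the ribosomal protein genes was not tested. Counts on mitochondrially encoded genes were 1.12% to 1.24% of the PP2Ac KO and 1.43% to 1.47% of the PP2Ac WT libraries, and the part of this difference was not tested either.

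Most ribosomal protein mRNAs were modestly higher in PP2Ac KO than in PP2Ac WT BMDM after TMM scaling, though not when libraries were scaled by total counts alone. Of the large-subunit members, 37 of 47 (78.7%) rose and none fell. Of the small-subunit members, 27 of 32 (84.4%) rose and none fell. Calls are at FDR under 0.05 in edgeR's quasi-likelihood test over 13680 genes after TMM scaling, at which 18.1% of all genes were higher and 19% lower. At an unadjusted p under 0.05, 41 large-subunit and 30 small-subunit members were higher and 0 were lower. The share of all genes at an unadjusted p was not taken, here or below. DESeq2 called 41 and 30 members higher and 0 lower at FDR under 0.05, beside 19% of all genes higher and 16.7% lower. The median log2 fold change was 0.27 for the large subunit (1.20-fold) and 0.28 for the small subunit (1.21-fold), beside -0.02 over all genes tested. The rises were narrow in range, from 1.15-fold to 1.27-fold among the large-subunit members that passed and from 1.15-fold to 1.36-fold among the small-subunit members. The members are spread over 19 chromosomes. In bulk cultures such as these, fewer cells of a type and less RNA in each cell cannot be told apart.

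As a share of all counts, the 79 members took 2.29%, 2.66% and 2.59% of the PP2Ac KO libraries, against 2.23%, 2.58% and 2.50% of the PP2Ac WT libraries, numbered 1 to 3. The groups overlapped on that scale, although each PP2Ac KO library was above the PP2Ac WT library of its number by a ratio of 1.03 to 1.04. The TMM factors were 0.910 to 0.937 for PP2Ac KO and 1.05 to 1.10 for PP2Ac WT libraries. On the TMM scale the members summed to 27092 ± 1689 CPM in PP2Ac KO against 22574 ± 1252 CPM in PP2Ac WT libraries (SD, n = 3), without overlap between libraries. With total counts alone, 0 large-subunit and 1 small-subunit member were higher in edgeR (0 and 2 at an unadjusted p under 0.05) while 3 and 1 were lower, beside 11% and 44.8% of all genes. With the replicate number as a block, which compares libraries of the same number, total counts alone gave 7 and 11 higher with 5 and 2 lower (13.7% and 55.5% of all genes). With total counts alone the median over all genes tested moved to -0.24, since this scaling lowered log2 fold changes by 0.22 on that median. With upper-quartile scaling 11 and 11 were higher and none lower (15.3% and 24.5% of all genes). With the block added it gave 41 and 29 higher and 1 large-subunit member lower (20% and 33.9% of all genes). With RLE scaling 40 and 30 were higher and none lower (19.4% and 17.7% of all genes). Under each of these scalings the median of the members lay 0.30 above the median of all genes tested on the log2 scale. A scaling moves all genes by the same amount, so this distance could not change with it.

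**Figure D1:**
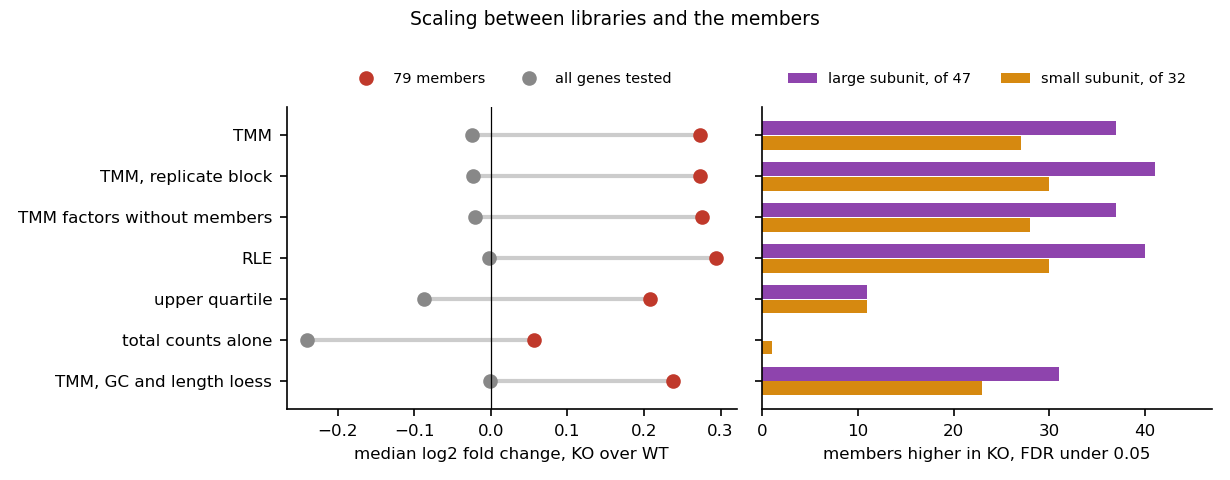
Left, the median log2 fold change (PP2Ac KO over WT) of the 79 members in red and of all genes tested in grey under 7 ways of scaling or fitting. Right, bars count the members higher in PP2Ac KO at FDR under 0.05. The distance between the medians was near 0.30 under each scaling, which moves all genes by the same amount and so cannot change it. It was 0.24 after the loess on GC content and length. The number of calls ran from 0 to 41 for the large subunit and from 1 to 30 for the small subunit.

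More of the abundant genes were called higher. Among the 2053 genes tested with a mean of at least 96.8 CPM, a level set by the lowest PP2Ac WT mean of the core members other than *Rpl13a*, 44.2% were higher and 8.96% lower, and their median was 0.16 on the log2 scale. The members lay above that background too, with 64 of 79 (81.0%) higher.

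After TMM scaling the libraries of the 2 genotypes were mostly separate. Without it the members' summed share of counts overlapped between genotypes, and separation gene by gene was not counted. In 39 large-subunit and 30 small-subunit members all 3 PP2Ac KO libraries were above all 3 PP2Ac WT libraries, a pattern shown by 24% of genes tested. In 1 member, *Rpl22l1*, all 3 were below, as in 26.8% of genes tested. The number-1 library had the lowest value of its genotype for 77 members in PP2Ac KO and for 72 in PP2Ac WT. On the TMM scale, for each replicate number taken alone, 76 of the 79 members were higher in the PP2Ac KO than in the PP2Ac WT library. They were not the same 76 members for every number, and the share of all genes tested with this pattern was not taken. As a share of all counts the members differed by a ratio of only 1.03 to 1.04 for each number. All members share these libraries, so their values are not separate observations. The count of calls depended on which library was left out. Without PP2Ac KO replicate 2 it was 2 large-subunit and 8 small-subunit members, beside 2012 of 14169 genes tested called higher. Without PP2Ac KO replicate 3 it was 10 and 11, beside 2227 of 13994 genes. Without PP2Ac KO replicate 1 it was 36 and 29, beside 2004 of 13979 genes. Leaving out 1 PP2Ac WT library gave 29 or 30 large-subunit and 21 or 22 small-subunit members, beside 1974 to 2721 of all genes tested. The medians stayed between 0.22 and 0.33 whichever library was left out.

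**Figure D2:**
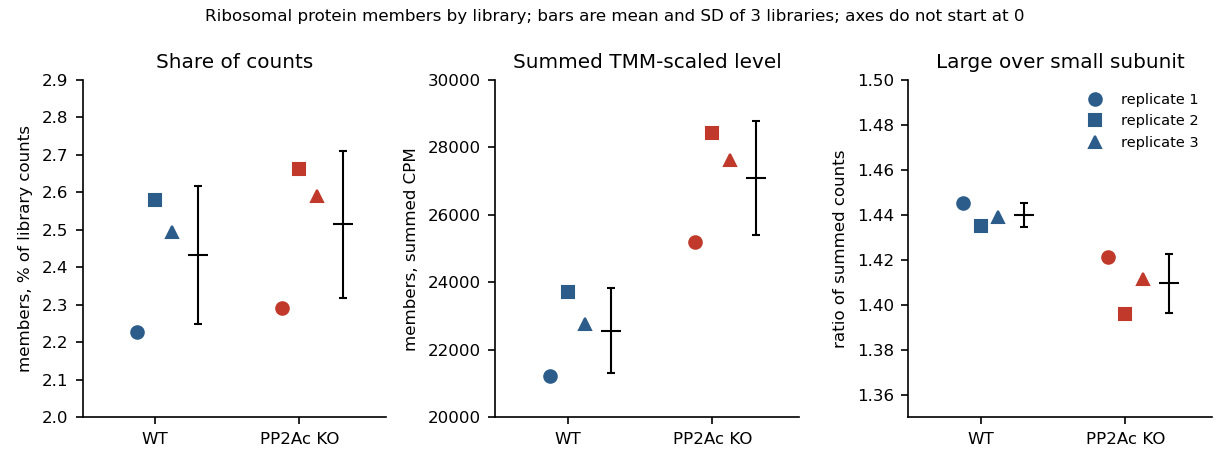
Each point is a library, with its replicate number as the marker shape. The panels show the members' share of all counts in percent, their summed CPM after TMM scaling, and the ratio of large-subunit to small-subunit counts, with the mean and SD of 3 libraries as a black bar. The genotypes overlap in the first panel and do not in the other panels.

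The largest log2 fold changes were those of small-subunit genes. *Rps27*, a zinc-finger protein of the small subunit, had 252, 297 and 296 CPM in PP2Ac KO against 201, 218 and 202 CPM in PP2Ac WT libraries. On the TMM scale every PP2Ac KO library was above every PP2Ac WT library, with a log2 fold change of 0.45 ± 0.08 (SE, n = 3 per group, edgeR adjusted p = 0.00233). *Rps20*, a protein of the head of the small subunit, had 295, 322 and 305 CPM against 214, 249 and 231 CPM. Its log2 fold change was 0.41 ± 0.08 (edgeR adjusted p = 0.00255), again without overlap on the TMM scale. *Rps29* had 404, 478 and 450 CPM in PP2Ac KO against 293, 363 and 349 CPM in PP2Ac WT libraries, a log2 fold change of 0.41 ± 0.10 (edgeR adjusted p = 0.00955). *Rps24*, one of the genes mutated in Diamond-Blackfan anemia, had 373, 420 and 414 CPM against 302, 319 and 305 CPM, a log2 fold change of 0.38 ± 0.07 (edgeR adjusted p = 0.00254). *Rps7*, *Rps21*, *Rps28* and *Rps23* followed with log2 fold changes of 0.35 to 0.36.

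Within the large subunit the leading genes lay close together. *Rpl35a*, mutated in some patients with Diamond-Blackfan anemia, had 163, 196 and 185 CPM in PP2Ac KO against 137, 150 and 141 CPM in PP2Ac WT libraries, with a log2 fold change of 0.35 ± 0.08 (edgeR adjusted p = 0.00797). *Rpl36* rose by the same log2 fold change, 0.35 ± 0.10, from 101 ± 11.4 CPM to 129 ± 12.5 CPM (SD, n = 3). *Rpl37* had a log2 fold change of 0.35 ± 0.08 and *Rpl38*, whose loss in mice alters the patterning of the axial skeleton, 0.34 ± 0.09. *Rpl35*, which lies at the end of the exit tunnel, and *Rpl19* followed at 0.32 for each. The 95% intervals of all these genes overlapped. Overlap of intervals from the same libraries is no test of a difference between genes, and none was made, so their order within the subunit is not resolved.

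**Figure D3:**
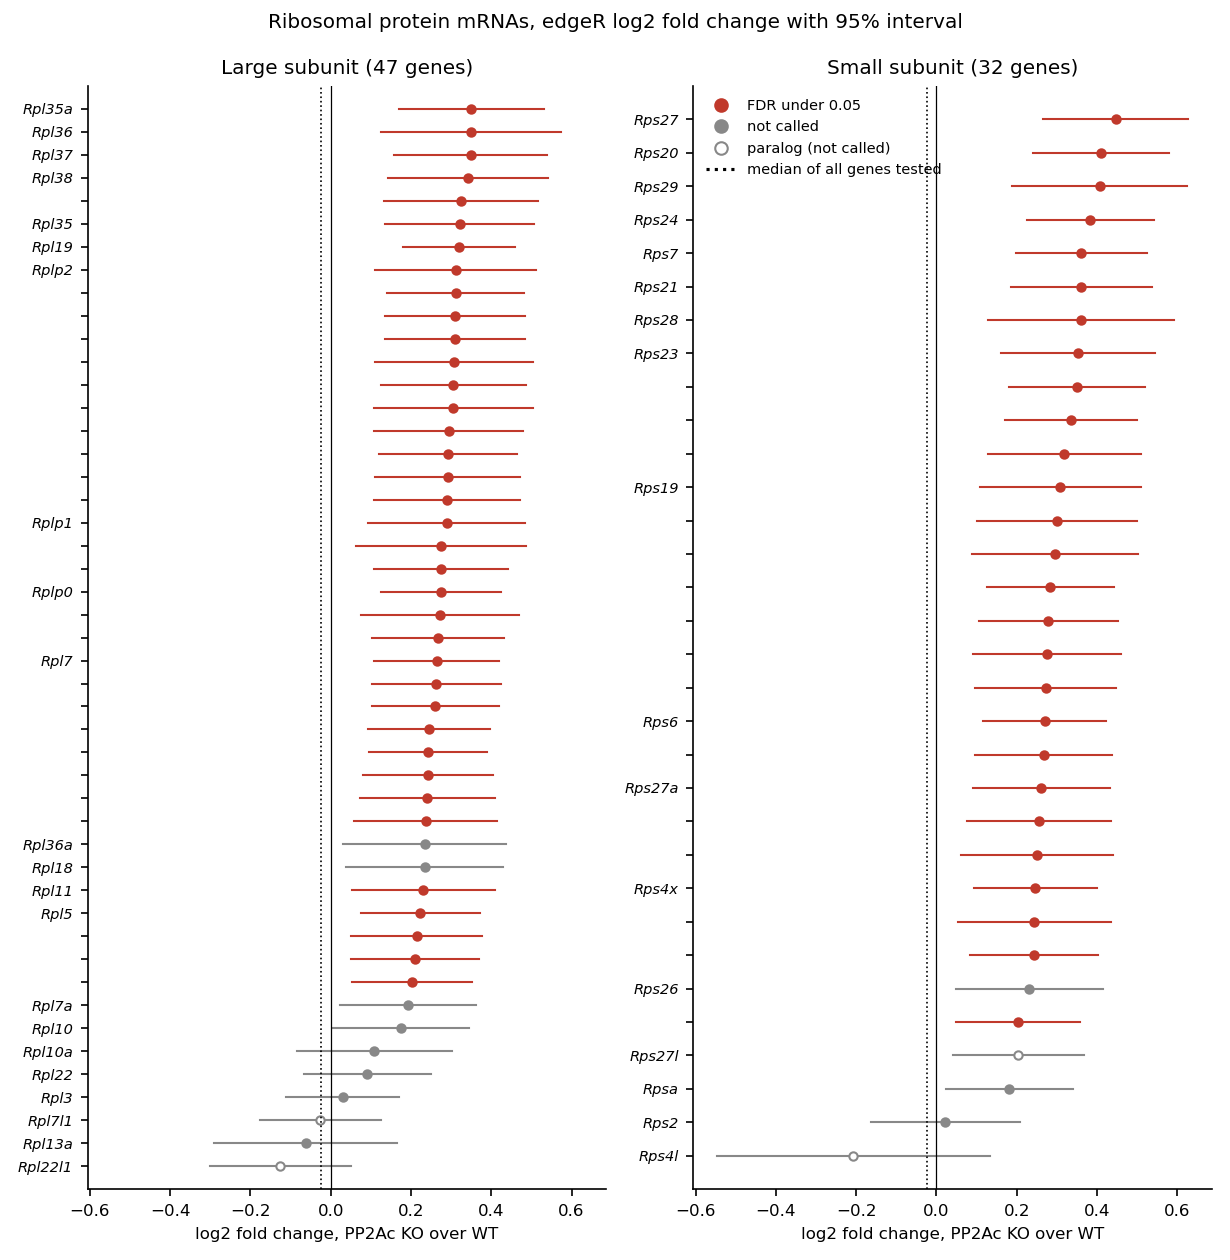
Log2 fold change (PP2Ac KO over WT, TMM scaling) of each member with its 95% interval from edgeR, for 47 large-subunit genes on the left and 32 small-subunit genes on the right. Red marks FDR under 0.05, grey marks genes not called, open circles mark the 4 paralogs, names are given for genes described in the text, and the dotted line is the median of all genes tested. Most points sit between 0.20 and 0.45, and *Rps2*, *Rpl3*, *Rpl13a* and 3 of the 4 paralogs sit near or below 0.

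The stalk of the large subunit, which recruits and activates the translational GTPases, is formed by P0 with the P1 and P2 proteins. *Rplp0* had 864, 910 and 884 CPM in PP2Ac KO against 703, 763 and 731 CPM in PP2Ac WT libraries. It rose with a log2 fold change of 0.27 ± 0.07 (edgeR adjusted p = 0.0104). *Rplp1* rose by 0.29 ± 0.09 and *Rplp2* by 0.31 ± 0.09 on the log2 scale, so the 3 stalk genes differed from each other by less than their standard errors. *Rpl5* and *Rpl11*, which carry the 5S rRNA and bind MDM2 when they are free of the ribosome, rose by 0.22 ± 0.07 and 0.23 ± 0.08. *Rps6*, the substrate of the S6 kinases, rose by 0.27 ± 0.07 (edgeR adjusted p = 0.0123), from 209, 226 and 211 CPM to 246, 272 and 261 CPM. *Rps27a*, translated as a fusion with ubiquitin, rose by 0.26 ± 0.08, and *Rps19*, the gene most often mutated in Diamond-Blackfan anemia, by 0.31 ± 0.09.

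The 15 members that did not pass the test were 11 core genes and the 4 paralogs, and of the 11 core genes 10 had a positive log2 fold change. *Rps2* had 502, 569 and 559 CPM in PP2Ac KO against 488, 566 and 552 CPM in PP2Ac WT libraries. The groups overlapped and the log2 fold change was 0.02, with a 95% interval from -0.16 to 0.21 (edgeR adjusted p = 0.853). *Rpl3*, a protein close to the peptidyl transferase center, had 567, 583 and 558 CPM against 544, 574 and 556 CPM. Its log2 fold change was 0.03, with a 95% interval from -0.11 to 0.17 (edgeR adjusted p = 0.746). *Rpl22* and *Rpl10a* had 0.09 and 0.11, and *Rpl10*, which joins the large subunit late in its maturation, 0.17. *Rps2*, *Rpl3*, *Rpl22*, *Rpl10a* and *Rpl13a* were chosen for mention after their values were seen. *Rpsa*, known also as the laminin receptor precursor, had 0.18 ± 0.07 (edgeR adjusted p = 0.0698) without overlap between genotypes after TMM scaling. With the replicate number as a block, 7 of the 15 passed, namely *Rpl36a*, *Rpl18*, *Rpl7a*, *Rpl10*, *Rps26*, *Rpsa* and *Rps27l*, and the counts became 41 large-subunit and 30 small-subunit members higher with none lower, beside 24.4% of all genes higher and 26.4% lower. *Rpsa* then had an edgeR adjusted p of 0.00302 and *Rps27l* 0.0127.

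When each library was scaled to the summed counts of the members, so that only unequal change within the family remained, edgeR called no member higher, and 3 large-subunit and 2 small-subunit members lower. At an unadjusted p under 0.05 it had 0 higher, and DESeq2 on that scale called 0 higher with 4 and 2 lower, chosen after seeing the data. On that scale 7.23% of all genes tested were higher and 45.5% lower. The members lower were *Rpl22l1* (log2 fold change -0.39), *Rpl7l1* (-0.29), *Rpl13a* (-0.32), *Rps4l* (-0.46) and *Rps2* (-0.24). With the replicate block on the same scale 7 small-subunit members were higher and 0 large-subunit members were, and 6 large-subunit and 2 small-subunit members were lower (12.4% and 61% of all genes). *Rps27* was among the former, with a log2 fold change of 0.18 relative to the family (edgeR adjusted p = 0.101 without the block and 0.00482 with it). *Rpl3* was among the lower ones, with -0.23 relative to the family (edgeR adjusted p = 0.0586 without the block and 0.000431 with it). The subunit medians were close on the TMM scale, 0.27 for the large and 0.28 for the small subunit. The ratio of large-subunit to small-subunit counts was 1.40 to 1.42 in PP2Ac KO and 1.43 to 1.45 in PP2Ac WT libraries, without overlap, and its difference was not tested. This ratio does not depend on the scaling between libraries.

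Short coding sequences went with larger fold changes. Across the 75 core members, which share the same 6 libraries, the log2 fold change and the log2 coding length had a Pearson's r of -0.49 and a Spearman's rho of -0.58. The 25 shortest (75 to 399 coding bases) had a median of 0.32 on the log2 scale, the 25 in the middle (405 to 576 bases) 0.27, and the 25 longest (582 to 1257 bases) 0.24. In the 3 sets, 22, 24 and 18 members rose. Over all genes tested the Spearman's rho between log2 fold change and exonic length was -0.09. Exonic length is another measure than coding length (6256 against 399 bases for *Rps24*), so this value and that of the members cannot be compared. For level, Pearson's r was 0.17 and Spearman's rho -0.18 across the same members, and for GC content they were -0.03 and 0.05. After a loess on GC content and exonic length in each library, 31 large-subunit and 23 small-subunit members were higher and 1 large-subunit member was lower (22.3% and 17.8% of all genes), and the members' median was 0.24. The loess did not use coding length. RNA integrity values were not used here, and the part of length in the calls was not tested further.

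**Figure D4:**
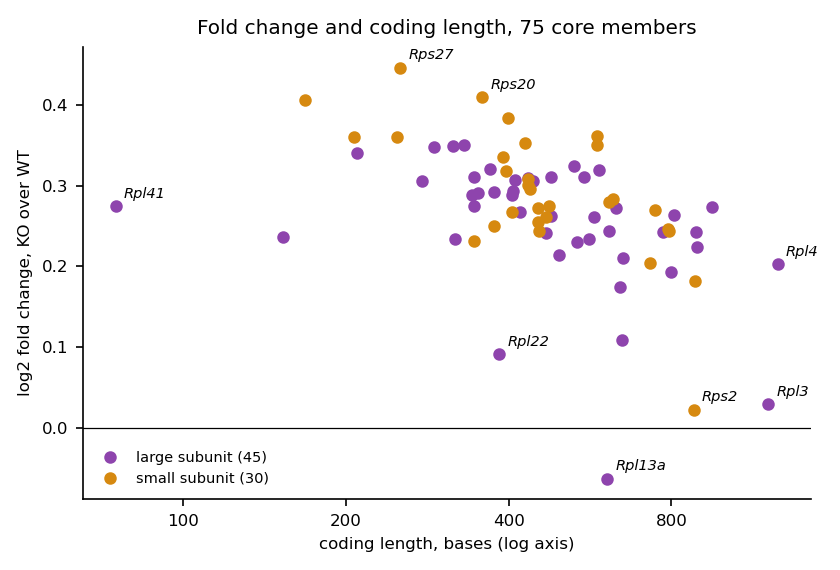
Log2 fold change (PP2Ac KO over WT) of each of the 75 core members against the length of its coding sequence in bases on a log axis, with large-subunit genes in purple and small-subunit genes in orange. The points tend downward with length but scatter widely. The shortest gene, *Rpl41* with 75 coding bases, had 0.27, and the longest, *Rpl4* with 1257, had 0.20. The highest point is *Rps27* with 252 coding bases, and the 4 lowest points are *Rpl13a*, *Rps2*, *Rpl3* and *Rpl22*.

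The 4 paralogs had fewer counts relative to the core genes they are named for in PP2Ac KO than in PP2Ac WT libraries. *Rpl22l1*, whose level RPL22 is known to repress, had 35.3, 42.2 and 42.3 CPM in PP2Ac KO against 44.3, 43.6 and 42.7 CPM in PP2Ac WT libraries, a log2 fold change of -0.13 ± 0.08 (edgeR adjusted p = 0.24). Set against *Rpl22* in the same library, its counts were 31.8% to 33.6% in PP2Ac KO and 37.1% to 39.3% in PP2Ac WT. *Rpl7l1*, a nucleolar protein related to RPL7, had 11.9% to 12.6% of the counts of *Rpl7* in PP2Ac KO and 14.7% to 15.5% in PP2Ac WT libraries. *Rps27l*, a paralog of *Rps27* that p53 induces, had 25.4, 29.6 and 28.4 CPM against 24.4, 24.7 and 23.3 CPM, a log2 fold change of 0.20 ± 0.07 (edgeR adjusted p = 0.0527). Its counts were 9.59% to 10.1% of those of *Rps27* in PP2Ac KO and 11.4% to 12.1% in PP2Ac WT libraries. *Rps4l*, annotated as a transcribed processed pseudogene of *Rps4x*, had 0.474% to 0.547% of the counts of *Rps4x* in PP2Ac KO and 0.604% to 0.868% in PP2Ac WT libraries. These ratios do not depend on the scaling between libraries. In all 4 pairs the ranges did not overlap, and the two-sided exact permutation p was 0.1 for each, also after adjustment over the 4 pairs, which is the smallest that 3 libraries against 3 allow. How many other genes fell relative to these core genes was not counted. The median of all genes tested lay 0.30 below that of the members on the log2 scale. The falls are therefore not shown to be particular to the paralogs.

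**Figure D5:**
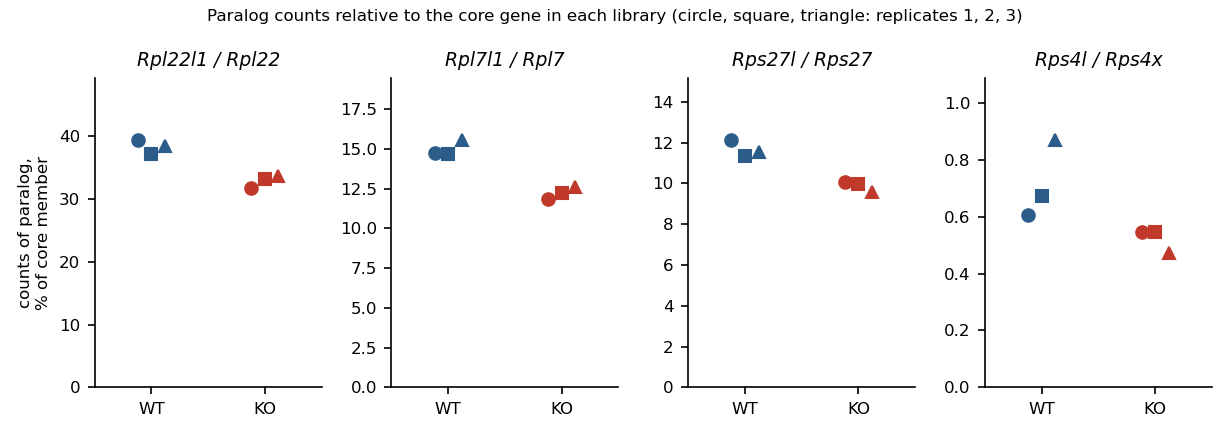
Counts of each paralog as a percent of the counts of its core gene in the same library, for PP2Ac WT in blue and PP2Ac KO in red, with a marker shape for each replicate number. Axes start at 0. In each of the 4 panels the 3 PP2Ac KO libraries lie below the 3 PP2Ac WT libraries.

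Members near the minimum and rows below it were mostly paralogs, pseudogenes and genes whose exons are shared with another gene. The 3 members just inside were *Rps4l* with 924 counts, *Rpl13a* with 2023 and *Rps27l* with 6503. Just outside were *Rps3a2* with 474 counts, *Rps10* with 261 and *Rpl6l* with 132, followed by 7 further rows. *Rpl13a*, a subunit of the GAIT complex that silences inflammatory mRNAs in interferon-treated myeloid cells, had 7.40, 8.39 and 7.84 CPM in PP2Ac KO against 7.35, 8.67 and 8.66 CPM in PP2Ac WT libraries. In the GENCODE M21 annotation, 59.3% of its main transcript lies in exons of *Gm45713* on the same strand. The same holds for 71.5% of *Rpl24*, with 34 counts, which overlaps *Gm28037*, and for 53.6% of *Rps10*, which overlaps a readthrough gene with *Nudt3*. The counting settings for overlapping genes are not given in the sources used here, so the values of these genes are uncertain. Among the other core members the largest such overlap was 10.7%, for *Rpl19*.

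Reads from processed pseudogenes can also be confused with those of the genes. A median of 21% of the 50-base windows in a core member's transcripts occurred in exons of another gene, and for 5 of the 75, *Rpl36* being the highest at 81.1%, it was over 50%. The 305 rows named as *Rpl* or *Rps* pseudogenes together had counts equal to 0.237% to 0.270% of the members' counts in every library. Of the 40 pseudogene rows tested 2 rose and 0 fell, and their median was 0.24 on the log2 scale.

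*Fau* and *Rack1* encode core ribosomal proteins under symbols that lie outside the selection, and both rose, though neither passed with total counts alone. *Fau*, which encodes RPS30 fused to a ubiquitin-like protein, had 375, 430 and 414 CPM in PP2Ac KO against 272, 326 and 312 CPM in PP2Ac WT libraries. It rose by 0.42 ± 0.09 on the log2 scale (edgeR adjusted p = 0.00473). *Rack1*, a scaffold for kinases on the head of the small subunit, rose by 0.28 ± 0.07 (edgeR adjusted p = 0.0125). *Rpl36al* had too few counts to be tested.

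Translation factors and other mRNAs known to carry the TOP motif had a lower median than the members. Of 19 such genes 4 rose (21.1%) and 0 fell. Of the 13 that reached the level of the abundant genes 4 rose (30.8%), below the 44.2% of abundant genes. For all 19 the median was 0.12 on the log2 scale (-0.10 with total counts alone, when 0 rose and 6 fell). The 4 were *Tpt1*, *Eif3f*, *Eef1b2* and *Eif3h*, with log2 fold changes of 0.22 to 0.26. *Eef1a1*, the elongation factor that brings aminoacyl-tRNA to the ribosome, had 0.20 ± 0.07 (edgeR adjusted p = 0.0602), and *Eif4b* had -0.13 ± 0.07. With the replicate block 10 of the 19 were higher, *Eef1a1* among them, and *Eif4b* and *Nap1l1* were lower. Of 10 RNAs that host small nucleolar RNAs, *Epb41l4aos* and *Zfas1* rose (20%) and *Snhg1* fell (10%), the former share near that of all genes tested. With the block 4 were higher and 1 lower, and with total counts alone 0 and 2.

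Among the genes that act in making ribosomes, 6 rose and 19 fell. These were 6.90% and 21.8% of the 87 ribosome biogenesis genes tested, the latter share near that of all genes tested, and the median of the 87 was -0.09 on the log2 scale, beside -0.02 over all genes tested. *Wdr43* and *Nol10*, parts of the machinery that processes the small-subunit rRNA precursor, rose by 0.86 ± 0.08 and 0.56 ± 0.08. *Nop16* fell by 0.80 on the log2 scale (edgeR adjusted p = 0.00144), from 6.27 ± 0.87 CPM to 3.60 ± 0.23 CPM (SD, n = 3). *Dkc1*, the pseudouridine synthase, and *Gnl3* fell by 0.72 and 0.61. With the replicate block 7 rose and 31 fell, and with total counts alone 2 rose and 59 fell. Of 77 mitochondrial ribosomal protein genes tested 8 rose (10.4%) and 4 fell (5.19%), both below the shares of all genes tested. Their median was -0.02 on the log2 scale with TMM and 0.0049 with RLE scaling. *Mrpl39* had the highest value among them, 0.54 ± 0.07, and *Mrpl41* the lowest, at -0.47 ± 0.12. With the block 10 rose and 13 fell, and with total counts alone 1 rose and 33 fell.

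Among 23 regulators tested from the mTOR, LARP1, S6 kinase and MYC group, 4 rose (17.4%) and 5 fell (21.7%), shares near those of all genes tested, and with the block 6 and 9. *Larp1*, whose protein binds the TOP motif, had 500, 398 and 408 CPM in PP2Ac KO against 301, 225 and 244 CPM in PP2Ac WT libraries. It rose by 0.76 ± 0.12 on the log2 scale (edgeR adjusted p = 0.00137), without overlap. *Max*, the partner of MYC, and *Igbp1*, the α4 protein that binds free PP2Ac, rose by 0.82 ± 0.08 and 0.47 ± 0.06. *Eif4ebp2*, a repressor of the cap-binding factor, and *Tsc1*, an inhibitor of mTORC1, fell by 0.62 and 0.36. *Rps6kb1*, *Mtor* and *Myc* had log2 fold changes of -0.08, 0.07 and -0.01 and did not pass the test. Of 14 p53 genes tested 5 rose (35.7%) and 1 fell (7.14%), against 18.1% and 19% of all genes tested. With the block 10 were higher and 1 lower, against 24.4% and 26.4%. *Cdkn1a*, an inhibitor of the cell cycle, rose by 1.09 ± 0.11 and *Mdm2*, the ubiquitin ligase of p53, by 0.81 ± 0.11 on the log2 scale. In these groups the calls depend on the scaling as well, with 3 higher and 13 lower among the regulators and 2 and 1 among the p53 genes under total counts alone.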

How the data were processed

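RNA-Seq of poly(A) RNA from 3 PP2Ac KO and 3 PP2Ac WT BMDM cultures was analysed. The authors deposited a table of whole-number counts per gene for mm10, without normalization. Their processing notes name fastp 0.20.0, STAR 2.7.1a, HTSeq 0.11.2, kallisto 0.46.1, edgeR 3.34.0 and limma 3.48.3, with no strand or overlap setting for the counting. The filter, scaling and test were those of edgeR 4.0.16 in R 4.3.3: filterByExpr (at least 10 counts, 15 in all), TMM factors, and a quasi-likelihood fit with genotype as its single term. P-values were adjusted by Benjamini-Hochberg over the 13680 genes left, and calls were made at FDR under 0.05. CPM use the TMM-scaled library sizes. Gene models, overlaps and lengths came from GENCODE M21 (GRCm38), which held 98.3% of the symbols, and promoter windows from RefSeq. In 1 simulation of 13533 genes, 9 of 50 genes changed by 0.3 on the log2 scale were called, and 35 of 50 changed by 0.5. Of the unchanged genes, 15 were called. The changed genes were drawn at random from all levels with independent noise, so these shares do not describe the abundant members.

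Both genotypes carry replicate numbers 1, 2 and 3 in the labels. The deviations of same-numbered libraries from their group means correlated at 0.289, 0.148 and 0.337 over all genes tested. Libraries of different numbers were not compared in this way, so pairing is not established. The replicate number was added as a block in a second fit, and the main fit did not use it. What the numbers share is not given in the sources used here. Members and gene lists were chosen with earlier results of these data known. Named genes were the 8 largest called changes in each subunit in each direction, the paralogs, the stalk genes, *Rpsa*, *Rps6*, rows beside the minimum, core genes outside the symbols and up to 3 called genes in each direction in the other lists. Genes named in addition for their role in the ribosome or in its regulation, or as a marker of a cell type, were chosen after their values were seen. A few items that the rule names are not reported here.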

Additional observations from a re-analysis of the deposited data

How the results depend on the processing

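Large-subunit and small-subunit members higher numbered 37 and 27, with 0 and 0 lower. These counts stayed within 1.5 times under RLE scaling, TMM factors without the members, both filters, DESeq2, limma-voom, the replicate block and member minimums of 60 and 6000 counts. They changed as follows. Upper-quartile scaling gave 11 and 11 higher, and with the replicate block 41 and 29 higher with 1 large-subunit member lower. Total counts alone gave 0 and 1 higher with 3 and 1 lower, and medians of 0.051 and 0.061. With the replicate block these were 7 and 11 higher, 5 and 2 lower, and medians of 0.050 and 0.061. Scaling to the members, chosen after seeing the data like the other combinations with the block except the loess, gave 0 and 0 higher with 3 and 2 lower, and with the replicate block 0 and 7 higher with 6 and 2 lower. The loess on GC content and length gave 1 large-subunit member lower, with and without the replicate block. FDR under 0.01 left 2 and 9 higher, and 0 and 0 with a log2 fold change over 1. The shares of all genes at these limits were not taken. Leaving out 1 library gave 2 to 36 large-subunit and 8 to 29 small-subunit members higher, beside 1974 to 2721 of all genes tested.

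Among named genes, total counts alone turned *Rps27l* (-0.011 on the log2 scale), *Rpsa* (-0.034), *Rps2* (-0.19), *Rpl3* (-0.19), *Rpl22* (-0.12) and *Rpl10a* (-0.11) negative. With the replicate block these were -0.015, -0.034, -0.19, -0.19, -0.13 and -0.10. Upper-quartile scaling gave -0.042 for *Rps2* and -0.034 for *Rpl3*, and -0.040 and -0.034 with the block. *Rpl7l1* became 0.0085 under the loess, 0.0067 with the block as well, and ran from -0.056 to 0.027 as 1 library was left out. *Rps2* ran from -0.039 to 0.069. The cause of these changes was not tested, except that a scaling moves all genes by the same amount. The replicate block ended no member's call. How much of the spread between libraries is counting error was not tested.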
